A study of Mus with 18 samples.

Results

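The muscle of mice labelled LPS-MIC-1 was compared with that of mice labelled LPS, with 3 libraries in each group out of the 18 libraries of the series. The muscle was the gastrocnemius, a large calf muscle built mainly of fast-contracting fibres. All mice were wild-type C57BL/6 males of unstated age. Mice of the LPS group were injected intraperitoneally with lipopolysaccharide, the outer membrane component of Gram-negative bacteria, at 10 mg/kg. Those of the LPS-MIC-1 group had in addition received MIC-1 at 80 mg/kg, in 10% DMSO, by gavage on each of the 3 days before the injection. MIC-1, also called moringin, is an isothiocyanate from Moringa oleifera seeds. Tissue was taken 16 h after LPS, and visible fat and connective tissue were cut away. The control group, whose 3 libraries are given here only as a reference, received no LPS. Its vehicle is saline in the sample labels and 10% DMSO by mouth in the study, and whether the LPS group was gavaged is not stated, so that effects of MIC-1 and of the DMSO gavage cannot be told apart. Of the 21401 gene symbols listed, 9467 had a mean FPKM over 1 in the 6 libraries and were compared. FPKM is a read count divided by transcript length and by sequencing depth. The question put to these libraries is how the transcriptome of LPS-treated muscle differs when MIC-1 was given first.

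Muscle fibres answer systemic inflammation, fasting and stress hormones with a shared programme. Glucocorticoids and low insulin signalling activate FoxO transcription factors, which switch on the ubiquitin ligases MuRF1 (Trim63) and atrogin-1 (Fbxo32) and genes of autophagy, so that fibre protein is broken down and amino acids leave the muscle. Fibres then burn fatty acids in place of glucose, a change held in place by the kinase Pdk4, and make metallothioneins, small proteins that bind zinc and copper. Inflammation itself is read through NF-kB, STAT and interferon-regulated genes.

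Between the libraries labelled LPS-MIC-1 and LPS, 958 genes (10.1% of those tested) had more transcript in LPS-MIC-1 and 475 (5.02%) had less when a gene had to pass an adjusted p of 0.05 and change by more than 1 on the log2 scale. These are the genes called higher or lower below, and their shares are the background for list counts. Genes with a mean under 1 FPKM in LPS were tested only where their LPS-MIC-1 mean was higher, and the reverse. Counts and medians of lists that hold such genes are partly set by this filter. The median size of the change was 1.72 on the log2 scale for the higher genes and 1.36 for the lower genes, and 41 higher genes but 1 lower gene changed by more than 5. The FPKM values of the 2 groups did not overlap for 948 of the 958 higher genes and for all 475 lower genes, against 33.2% and 31.1% of all genes tested. At any fold size, 2740 genes (28.9%) were higher and 2614 (27.6%) lower at an adjusted p under 0.05. The genes called higher held 1.53 to 1.54% of all FPKM in the LPS libraries and 9.30 to 9.38% in the LPS-MIC-1 libraries. Under quantile normalization the median over all genes moves by -0.119, with 811 higher and 685 lower genes, and 54.2% of the called genes are then higher instead of 66.9%.

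**Figure D1:**
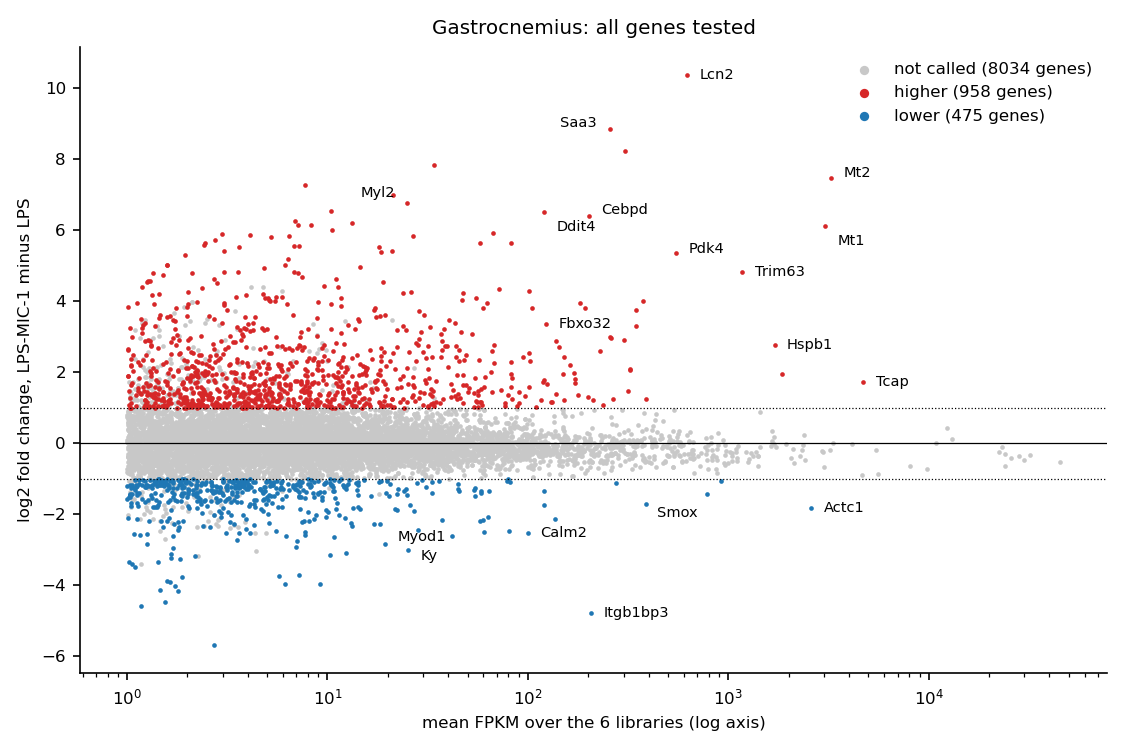
Each point is 1 of the 9467 genes tested, with its mean FPKM over the 6 libraries on a log axis against its log2 fold change between LPS-MIC-1 and LPS, and dotted lines at a change of 1. The 958 genes called higher (red) reach further from 0 than the 475 called lower (blue), and the highest points include Lcn2 at 10.37 and Saa3 at 8.85.

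Some facts of the libraries bear on every result. The correlation of replicates across genes lay between 0.955 and 0.961 in LPS-MIC-1 and between 0.956 and 0.958 in LPS. The steps between low values put the depth of the muscle libraries between 0.997 and 1.12 relative to each other, the highest being LPS-MIC-1 replicate 3. The 10 most abundant genes held 35.4 to 35.8% of FPKM in LPS-MIC-1, 41.6 to 41.8% in LPS and 44.1 to 44.2% in control. Several genes known to answer LPS were high in the libraries labelled LPS-MIC-1 and near the control level in those labelled LPS. For example, Lcn2, an iron-scavenging acute-phase protein, had 1318, 1264 and 1162 FPKM in LPS-MIC-1 but 0.336, 1.24 and 1.34 in LPS, close to the 0.516 ± 0.444 (SD, n = 3) of control. All directions below are therefore directions between libraries with these labels.

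The metallothionein genes showed the clearest shift in abundance. Mt2 had 36.3, 35.6 and 35.5 FPKM in the LPS libraries and 6773, 6627 and 5957 in the LPS-MIC-1 libraries, against 7.96 ± 0.390 in control (SD, n = 3). Mt1 had 82.6, 87.5 and 88.5 in LPS, 6342, 6080.5 and 5624 in LPS-MIC-1 and 31.3 ± 3.22 in control. Every LPS library thus lay far below every LPS-MIC-1 library, and together the pair went from 0.0166 to 0.0173% of all FPKM in LPS to 1.83 to 1.95% in LPS-MIC-1. The log2 fold changes were 7.49 (standard error 0.0538, adjusted p = 2.44e-11) for Mt2 and 6.12 (standard error 0.0750, adjusted p = 4.56e-10) for Mt1. Slc39a14, a zinc and iron importer (ZIP14), rose as well, from 2.50 ± 0.234 to 49.5 ± 1.94 FPKM, and these were the only 3 of 16 tested genes of the metallothionein and zinc transporter list to be called. Among 17 iron genes, 4 were higher and 1 lower (23.5% and 5.88%, against 10.1% and 5.02% of all genes tested). Steap4, a metalloreductase, rose from 7.91 ± 0.616 to 27.3 ± 1.27, Slc25a28, a mitochondrial iron importer, from 19.7 ± 1.45 to 62.7 ± 4.11, and Hmox1, the haem-degrading oxygenase, from 7.73 ± 0.631 to 19.6 ± 1.26. Hamp2, a hepcidin gene, is listed at 0 in the 3 LPS libraries and had 3.17 ± 0.338 in LPS-MIC-1. Tfrc, the transferrin receptor, fell from 30.9, 28.8 and 30.4 to 10.8, 10.0 and 11.2.

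Several genes that start fibre protein breakdown rose. Trim63 had 79.4, 73.9 and 83.2 FPKM in LPS and 2259.9, 2323 and 2206 in LPS-MIC-1 (log2 fold change 4.84, standard error 0.0428, adjusted p = 7.48e-11), with 88.7 ± 0.503 in control. Fbxo32 had 22.2, 21.0 and 22.5 in LPS and 228, 231 and 216 in LPS-MIC-1 (log2 fold change 3.35, standard error 0.0390, adjusted p = 4.15e-10). The transcription factor Foxo1 went from 2.84, 2.77 and 2.93 to 35.6, 37.8 and 34.1, and Klf15, a glucocorticoid-induced factor that acts on amino acid breakdown, from 5.39, 5.34 and 5.29 to 88.4, 92.9 and 84.8. No value of these 4 genes in an LPS library came near the lowest in LPS-MIC-1, and the LPS values were at or below those in control except for Foxo1. In the list of atrophy ligases and FoxO regulators, 11 of 28 genes were higher and 1 was lower, and the list median was 0.44 against 0.0011 over all genes tested. Other higher members were the ligases Cblb (1.80 ± 0.162 to 12.3 ± 0.792) and Nedd4l (4.16 ± 0.212 to 23.8 ± 1.18), Foxo3 (0.539 ± 0.141 to 3.64 ± 0.192) and Zfand5, whose product binds the proteasome. The lower member was Foxo6, which went from 8.26 ± 0.850 to 3.47 ± 0.231.

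The proteasome itself moved little. Of 35 constitutive 26S proteasome subunits, 0 were called, and the median was 0.22 on the log2 scale. At an adjusted p under 0.05 of any fold size, 22 were higher and 2 lower (18 and 5 after quantile normalization). Over all genes tested, 28.9% were higher and 27.6% lower by that measure. Psmd8, a regulatory particle subunit, went from 195 ± 6.23 to 326 ± 14.0 FPKM, a change of 0.74 (adjusted p = 1.33e-06). Psmb7, a catalytic subunit, had 257 ± 7.34 and 249.9 ± 15.3 (adjusted p = 0.469). In autophagy, 5 of 40 genes were higher and 0 lower, and the 12.5% called higher was close to the 10.1% of all genes tested. At any fold size 20 were higher and 4 lower (16 and 5 after quantile normalization), against the same 28.9% and 27.6%. Gabarapl1, which lipid-linked marks the autophagosome, had 13.7, 14.1 and 13.5 in LPS and 189, 204 and 195 in LPS-MIC-1 (log2 fold change 3.82, standard error 0.0504, adjusted p = 6.48e-10). The kinase Ulk1, which starts autophagy, rose by 1.93, the lysosomal protease Ctsl by 1.54, the autophagosome protein Map1lc3b by 1.34 and the mitophagy receptor Bnip3 by 1.3. The remaining 35 genes of this list were not called, and its median was 0.30.

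**Figure D2:**
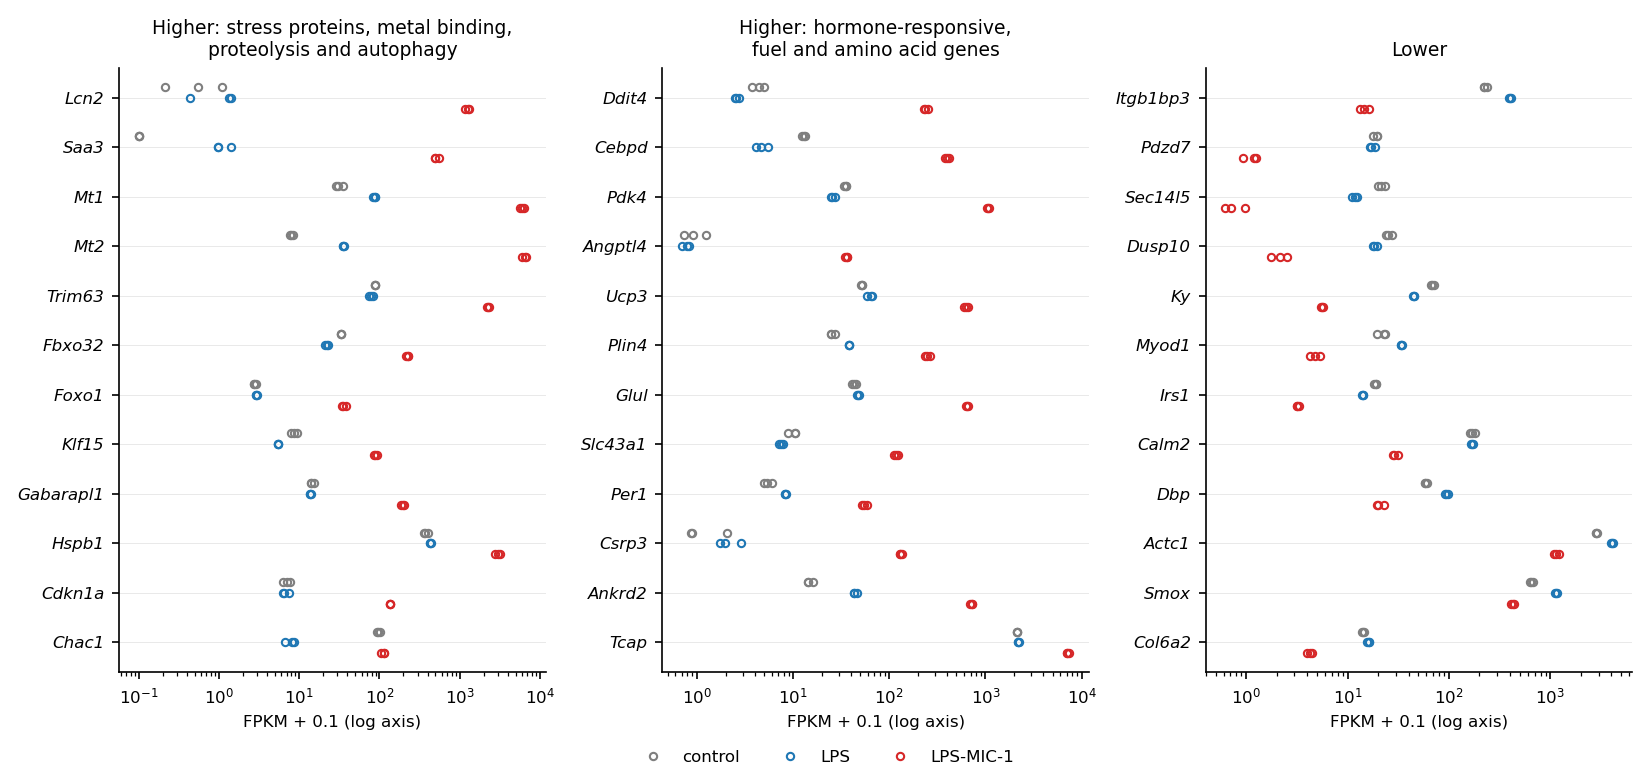
FPKM plus 0.1 on a log axis for 36 genes, chosen after their values were seen, with 1 circle per library and 3 libraries per group. In the left and middle panels every LPS-MIC-1 circle lies above every LPS circle, and in the right panel every LPS-MIC-1 circle lies below. Chac1 stands at about the same level in control (98.0 ± 4.54) and LPS-MIC-1 (111 ± 6.67).

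Glucocorticoid-responsive genes, which the hormone cortisol or corticosterone switches on through the receptor Nr3c1, were among the most consistently changed. Of 20 tested members, 16 (80.0%) were higher and 2 (10.0%) lower, against 10.1% and 5.02% of all genes tested. The median log2 fold change was 2.88, against 0.0011 over all genes tested. Ddit4, an inhibitor of the growth kinase mTORC1, had 2.48, 2.64 and 2.41 FPKM in LPS and 231, 254 and 234 in LPS-MIC-1 (log2 fold change 6.52, standard error 0.1, adjusted p = 1.19e-09). Cebpd, a C/EBP transcription factor, had 4.58, 5.35 and 4.05 in LPS and 399, 422 and 377 in LPS-MIC-1 (log2 fold change 6.40, standard error 0.0942, adjusted p = 1.03e-09). Angptl4, a secreted inhibitor of lipoprotein lipase, went from 0.601, 0.689 and 0.724 to 36.4, 35.9 and 34.2, and passed the FPKM filter only through LPS-MIC-1. The groups were separate for all 3 genes, and Cebpd was at 12.9 ± 0.561 in control, above LPS. Fkbp5, a chaperone of the receptor, rose by 3.08 (11 ± 0.268 to 94.2 ± 5.06 FPKM), Tsc22d3, which encodes the glucocorticoid-induced leucine zipper, by 2.21 and Errfi1, an inhibitor of the EGF receptor, by 3.07. Zbtb16 rose by 3.04, and without LPS-MIC-1 replicate 3 its change was about as large, at 2.92, but was not called (adjusted p = 0.0625). The 2 lower members were Ddit4l, which also restrains mTORC1, at 102 ± 1.44 and 24.0 ± 0.785, and the phosphatase Dusp1, at 48.5 ± 1.47 and 23.1 ± 1.68.

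The circadian clock list, whose genes also answer glucocorticoids and time of day, had 5 higher and 3 lower genes of 20. Per1, a repressor of the clock, had 8.33, 8.17 and 8.09 FPKM in LPS and 54.0, 58.8 and 52.6 in LPS-MIC-1, a change of 2.73. Nfil3, which represses D-box genes, rose by 2.73 and Cry2 by 2.37, whereas Dbp, which activates D-box genes, fell from 94.4 ± 3.48 to 20.7 ± 1.69 (log2 fold change -2.19, standard error 0.0592, adjusted p = 2.10e-08). Bhlhe41 and Per3 were lower by 1.53 and 1.14. Times of day at which the tissue was taken are not given for the groups. Immediate-early genes, C/EBP factors and their phosphatases had 14 higher and 3 lower of 29. Besides Cebpd, the highest were Btg2, an antiproliferative gene, at 2.53, 2.00 and 1.96 in LPS and 110.3, 116 and 112 in LPS-MIC-1, Maff at 0.469 ± 0.380 and 13.9 ± 1.17, and Atf3 at 0.951 ± 0.235 and 21.7 ± 2.06. Dusp10, a phosphatase that inactivates p38 and JNK, was lower in each library, with 17.8, 18.1 and 19.5 in LPS and 2.05, 2.41 and 1.65 in LPS-MIC-1 (log2 fold change -3.13, standard error 0.122, adjusted p = 1.90e-07).

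Fuel genes split between a few large rises and many small falls. Pdk4, the kinase that shuts pyruvate out of the citric acid cycle, had 24.9, 25.5 and 27.1 FPKM in LPS and 1092, 1071 and 1047 in LPS-MIC-1 (log2 fold change 5.37, standard error 0.0394, adjusted p = 2.44e-11), with 34.8 ± 0.990 in control. Ucp3, an uncoupling protein of muscle mitochondria, went from 63.9, 59.0 and 65.8 to 653, 631 and 602, and Ucp2 from 7.21 ± 0.483 to 69.0 ± 8.75. Of 45 genes of fatty acid uptake, storage and oxidation, 11 were higher and 1 was lower. They included lipid droplet genes (Plin4, 38.1 ± 0.335 to 249 ± 12.9; Plin5, 4.77 ± 0.432 to 17.6 ± 1.27; Plin2, 12.8 ± 0.159 to 27.0 ± 1.91), Pnpla2, the triglyceride lipase, at 168 ± 5.92 and 465 ± 31.5, and the mitochondrial thioesterase Acot2 at 4.44 ± 0.165 and 28.2 ± 2.18. The lower gene was Acsl3, an acyl-CoA synthetase, at 7.19 ± 0.362 and 2.32 ± 0.0813. The list's median was 0.12 (-0.04 after quantile normalization), so most of its members did not follow these rises.

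Respiratory chain subunits encoded in the nucleus lay slightly below. Of 79 genes, 71 were lower and 0 higher at an adjusted p under 0.05 of any fold size (66 and 0 after quantile normalization). The shares over all genes tested, for this and the next 2 lists, were 27.6% lower and 28.9% higher. Only Ndufs8, of complex I, passed a change of 1, at 15.5 ± 2.94 and 7.30 ± 0.947 FPKM. The median was -0.35, and the call of Ndufs8 was lost without LPS replicate 2 or 3 or LPS-MIC-1 replicate 2. Mitochondrial ribosomal proteins were similar, with 51 lower and 2 higher of 75 at any fold size and a median of -0.30. Mrpl41 alone was called, at 14.7 ± 0.861 and 65.2 ± 0.634. In the citric acid cycle list, 18 of 28 genes were lower and 4 higher at any fold size, with a median of -0.29, and the 2 genes called higher were Pdk4 and the phosphatase Pdp2 (0.840 ± 0.0380 to 2.17 ± 0.327). Skeletal muscle fibre markers, given at the end, were lower in summed FPKM as well, and their part in these small falls was not tested.

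Regulators of oxidative metabolism had 3 higher and 3 lower genes of 20 (15.0% each way, against 10.1% and 5.02% of all genes tested). Ppargc1a, which encodes PGC-1alpha, had 3.76, 3.86 and 4.19 FPKM in LPS and 1.16, 1.80 and 2.07 in LPS-MIC-1 (log2 fold change -1.22, standard error 0.265, adjusted p = 0.00442), and without LPS-MIC-1 replicate 1 the change was -0.99. 2310042D19Rik, the older name of the PGC-1 partner Perm1, had 43.7 ± 0.698 and 18.5 ± 0.711, and Prkag3, the AMPK subunit of fast fibres, had 111 ± 3.29 and 52.1 ± 2.94. Ppara, a receptor for fatty acids, was higher at 0.707 ± 0.112 and 3.52 ± 0.314, as were Nr4a3 and Pprc1. Ppara and Nr4a3 passed the FPKM filter only through LPS-MIC-1. In glycolysis, glucose transport and glycogen, 5 of 38 genes were higher and 1 lower (13.2% and 2.63%, against 10.1% and 5.02% of all genes tested). Higher genes included the glucose carriers Slc2a1 (3.04 ± 0.388 to 12.8 ± 1.34) and Slc2a3 (0.813 ± 0.0698 to 3.36 ± 0.268). Slc37a4, a glucose-6-phosphate carrier, had 6.06, 7.40 and 2.80 in LPS and is listed at 0 in the LPS-MIC-1 libraries. At any fold size 18 of this list were lower and 10 higher, against 27.6% and 28.9% of all genes tested, and the median was -0.14.

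The abundant gene with the largest fall belonged to NAD synthesis. Itgb1bp3, now called Nmrk2, the muscle nicotinamide riboside kinase, had 393, 402 and 405 FPKM in LPS and 13.2, 16.1 and 14.5 in LPS-MIC-1 (log2 fold change -4.77, standard error 0.0638, adjusted p = 6.48e-10). Its level in control was 226 ± 7.01, so that LPS lay above and LPS-MIC-1 below control. Nudt12 was the other lower gene among 17 in the NAD list, at 1.86 ± 0.440 and 0.791 ± 0.298, and lost its call without LPS replicate 2 or 3 or LPS-MIC-1 replicate 1 (adjusted p 0.0770 to 0.0815). Of this list, 0 genes were called higher and 11.8% lower, against 10.1% and 5.02% of all genes tested.

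**Figure D3:**
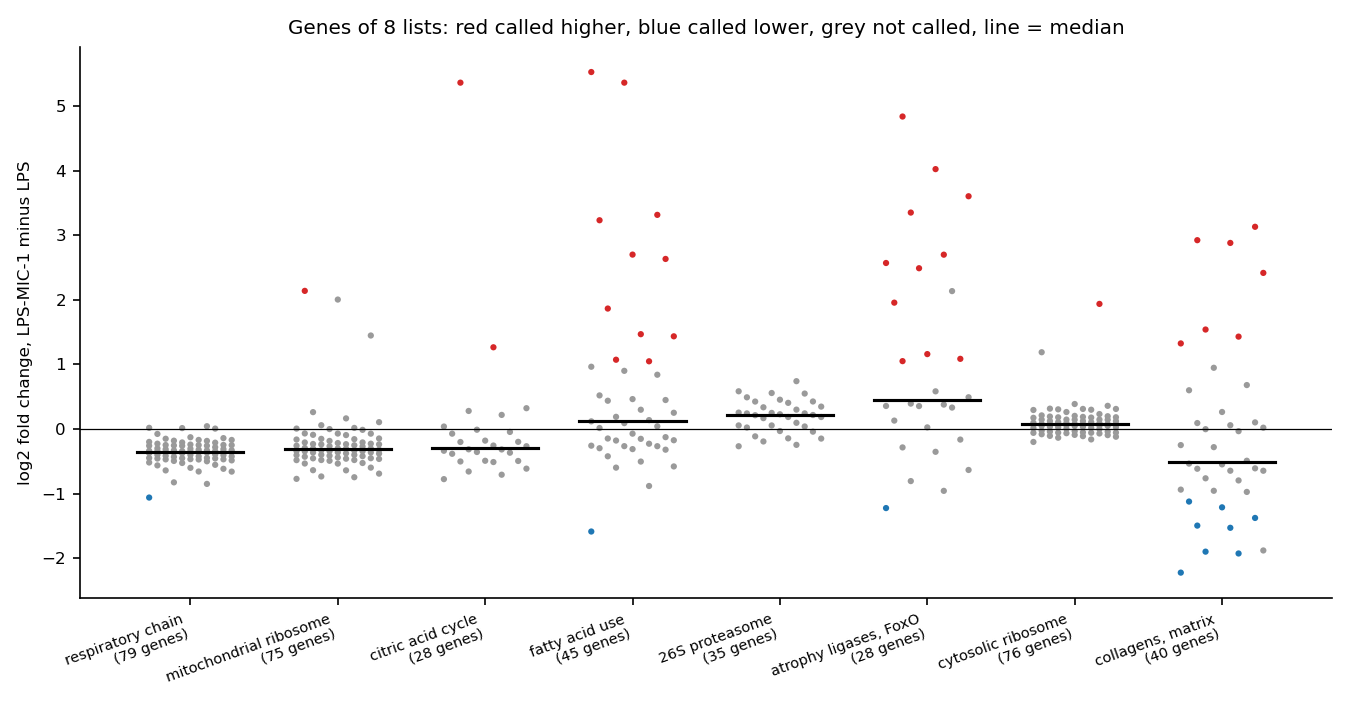
Log2 fold changes between LPS-MIC-1 and LPS of single genes in 8 lists, with red points called higher, blue points called lower, grey points not called, and a line at the list median. The respiratory chain, mitochondrial ribosome and citric acid cycle genes lie mostly just below 0 (medians -0.35, -0.30 and -0.29), while the fatty acid and atrophy lists hold single genes that rose by more than 2 above medians of 0.12 and 0.44.

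Some genes that move amino acids and ammonia out of fibres rose. Glul, glutamine synthetase, had 47.6, 46.7 and 48.6 FPKM in LPS and 650.0, 664 and 629 in LPS-MIC-1 (log2 fold change 3.76, standard error 0.0407, adjusted p = 2.92e-10). Slc43a1, a carrier of branched-chain amino acids, had 7.09, 7.72 and 7.41 in LPS and 118, 123 and 111 in LPS-MIC-1, a change of 3.97. In the amino acid list 9 of 38 genes were higher and 1 lower, which included the carriers Slc7a8 (9.08 ± 0.480 to 46.0 ± 3.45) and Slc7a6 (0.214 ± 0.208 to 3.06 ± 0.703) and Aldh6a1, of valine breakdown (25.9 ± 1.46 to 76.2 ± 5.25). The lower gene was Slc15a5, a peptide carrier, at 4.44 ± 0.215 and 1.59 ± 0.349. Arginine, nitric oxide and polyamine genes went both ways, with 4 higher and 4 lower of 22. Smox, spermine oxidase, was the most abundant, with 1146, 1149 and 1119.7 in LPS and 423, 441 and 411 in LPS-MIC-1 (log2 fold change -1.42) and 651 ± 18.5 in control. Sat1, which acetylates spermidine and spermine, rose from 3.29 ± 0.261 to 14.4 ± 1.3.

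Insulin and growth factor signalling had 9 higher and 5 lower genes of 36, with a median of 0.49 (0.29 after quantile normalization). Irs1, the docking protein of the insulin receptor, had 13.8, 14.0 and 14.1 FPKM in LPS and 3.21, 3.11 and 3.09 in LPS-MIC-1 (log2 fold change -2.12, standard error 0.0447, adjusted p = 4.93e-09), whereas its relative Irs2 went from 3.16 ± 0.0644 to 9.90 ± 0.984. The ligand Igf1 fell from 7.28 ± 0.427 to 3.08 ± 0.140 and the binding protein Igfbp5 from 84.9 ± 1.62 to 32.2 ± 1.62, while Igfbp3 rose from 3.66 ± 0.318 to 20.3 ± 1.18. Genes that restrain mTORC1 or its output went both ways. Ddit4l fell from 102 ± 1.44 to 24.0 ± 0.785, whereas Ddit4 rose, as did Sesn1 at 3.98 ± 0.484 and 53.4 ± 2.04, and Eif4ebp1, which holds back cap-dependent translation, at 123 ± 3.62 and 527 ± 28.1. Pik3ip1, an inhibitor of PI3-kinase, had 11.4 ± 0.769 and 62.2 ± 2.72.

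Most genes of the translation machinery were not called. Of 76 cytosolic ribosomal proteins, 1 was called higher and 0 lower, and the median was 0.08. That gene was Rpl3, whose partner Rpl3l takes its place in mature muscle, with 18.4, 17.7 and 18.2 FPKM in LPS. The LPS-MIC-1 libraries had 56.4, 67.4 and 88.9, the highest being replicate 3. Translation factors and ribosome biogenesis had 4 higher of 46 genes (Rrs1, Eef1a1, Eif1a and Eif4a1) and 0 lower. The 8.7% called higher was close to the 10.1% of all genes tested. At an adjusted p under 0.05 of any fold size, 30 of these 46 were higher and 5 lower (22 and 7 after quantile normalization). The cytosolic ribosomal proteins had 22 higher and 2 lower by that measure, against 28.9% and 27.6% of all genes tested. Eef1a1, the elongation factor isoform that adult fibres largely replace, had 96.9, 95.1 and 97.4 in LPS and 213, 211 and 351 in LPS-MIC-1, with changes of 1.38 and, without replicate 3, 1.13.

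Of 43 myosin, actin, troponin, tropomyosin and associated genes, 14 were higher and 2 lower. Those of slow fibres were low in the control and LPS libraries of this fast muscle and higher in LPS-MIC-1. Myl2, the slow regulatory light chain, had 0.459, 0.309 and 0.304 FPKM in LPS and 54.1, 45.9 and 47.8 in LPS-MIC-1 (log2 fold change 6.77, standard error 0.205, adjusted p = 4.27e-08), with 0.855 ± 0.233 in control. Myh7, the slow myosin heavy chain, had 0.0378, 0.0505 and 0.200 in LPS and 10.3, 10.5 and 10.2 in LPS-MIC-1. No LPS library reached the lowest LPS-MIC-1 value for either gene. All 8 slow-fibre genes examined, which were chosen after their values were seen, were called higher, with changes from 1.44 (Myl3) to 6.77 (Myl2) and a median of 5.49. Because of that choice, this count and median describe the 8 genes and are no test of fibre type. Myl2, Myh7, Tnni1 and Tnnt1 also passed the FPKM filter only through LPS-MIC-1. Casq2, the calsequestrin of slow and cardiac fibres, was not among the 8 and was called lower (-1.77). Of 8 fast-fibre partners, chosen in the same way, 0 were called, and their changes ran from -0.83 (Myh1) to 0.44 (Tnnt3) with a median of -0.27. The fast myosin Myh4 had 10910.3 ± 215 and 10922 ± 291, so that slow myosin remained a small part of the total.

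Other higher members of the same list encode proteins of the Z-disc and myofibril. Csrp3, muscle LIM protein, had 2.81, 1.86 and 1.66 FPKM in LPS and 130.2, 136 and 128 in LPS-MIC-1 (log2 fold change 5.93), and Ankrd2 had 42.6, 46.1 and 43.4 and then 725, 717 and 687 (4.01). Ankrd1, also in the myogenic list, rose by 4.45 and Xirp1, found at sites of myofibril repair, by 2.02. Tcap, which caps titin, was the most abundant of all higher genes, and went from 2156, 2248 and 2158 to 7091, 7447 and 7106 (1.72). The 2 lower contractile genes were Actc1, cardiac actin, at 4106, 4064 and 4001 in LPS and 1130.4, 1203 and 1087 in LPS-MIC-1 (-1.83), and Mybph, a myosin-binding protein, at 591 ± 6.62 and 181 ± 12.3 (-1.71). Ky, whose loss causes a muscle disease in the ky mouse, fell from 45.6, 43.9 and 44.9 to 5.48, 5.62 and 5.36 (-3.01, standard error 0.0402, adjusted p = 6.48e-10).

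In calcium handling, 3 of 35 genes were higher and 2 lower. These shares of 8.57% and 5.71% were close to the 10.1% and 5.02% of all genes tested. At an adjusted p under 0.05 of any fold size, 16 genes were lower and 9 higher, against 27.6% and 28.9% of all genes tested. After quantile normalization these counts were 17 and 9. Sarcolipin (Sln), an inhibitor of the calcium pump, went from 2.60 ± 0.453 to 24.7 ± 2.04 FPKM, the slow-fibre pump Atp2a2 from 1.80 ± 0.252 to 6.78 ± 1.35 and phospholamban (Pln) from 0.699 ± 0.484 to 2.07 ± 0.269. Casq2 was lower at 3.93 ± 0.0892 and 1.09 ± 0.176, as was Atp1b1, a subunit of the sodium pump, at 28.5 ± 0.825 and 10.7 ± 0.565. Calm2, 1 of the calmodulin genes, was not in the list and had 166, 174 and 169 in LPS against 28.4, 28.1 and 31.5 in LPS-MIC-1 (log2 fold change -2.53). Since calmodulin genes encode the same protein and have related transcripts, the split of reads between them is uncertain. The mitochondrial creatine kinase Ckmt2 fell from 1243 ± 9.51 to 602 ± 26.3, a change of -1.05 that came to -0.93 after quantile normalization.

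**Figure D4:**
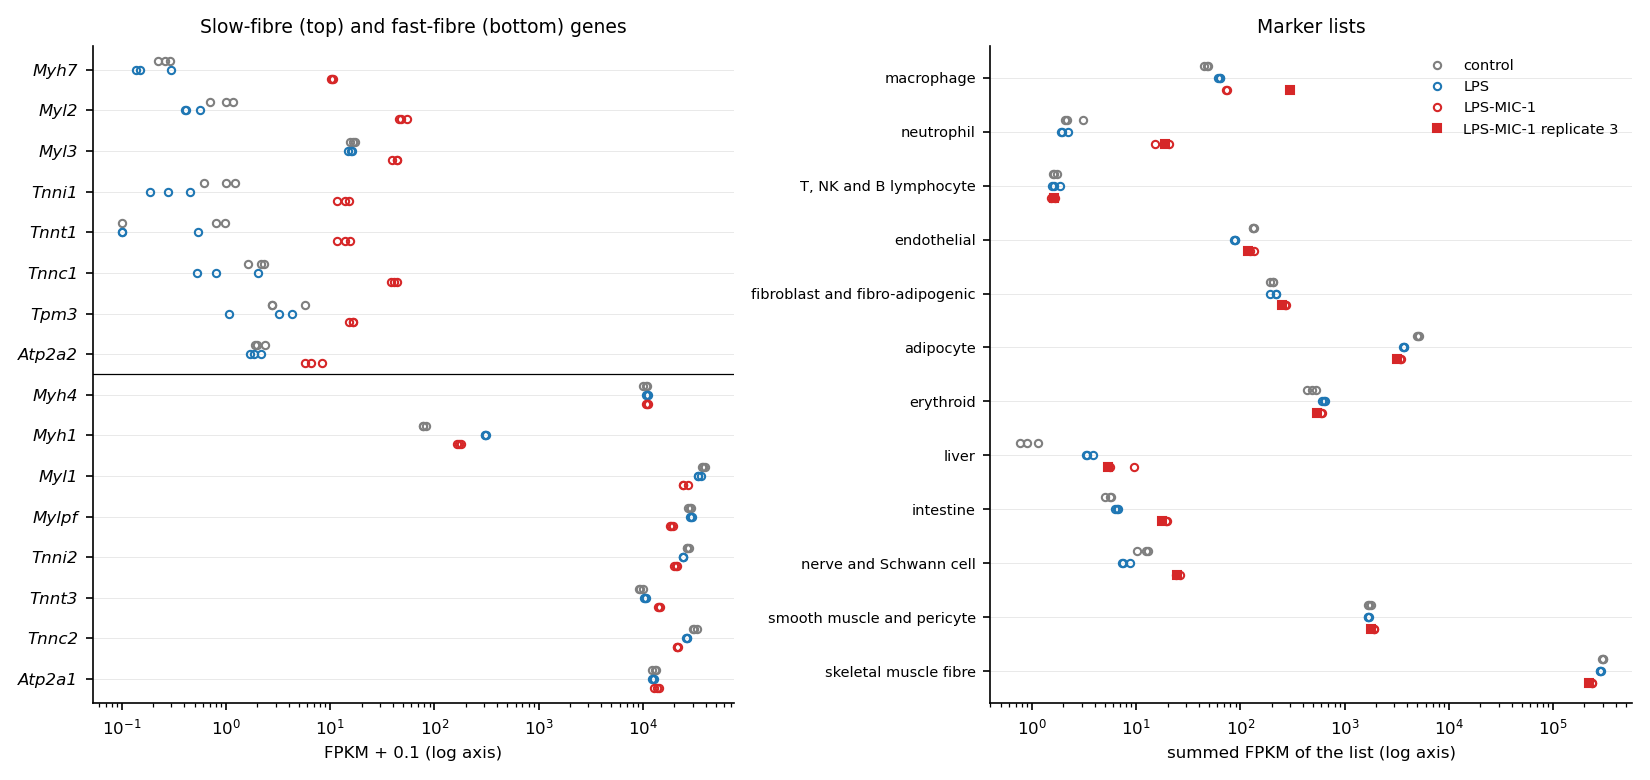
The left panel gives FPKM plus 0.1 on a log axis for 8 slow-fibre and 8 fast-fibre genes, and the right panel gives summed FPKM of 12 marker lists, with 1 symbol per library. Slow-fibre genes lie higher in LPS-MIC-1 than in LPS, and the filled square of LPS-MIC-1 replicate 3 stands apart in the macrophage list at 299.

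Neuromuscular junction genes and genes that answer denervation had 5 higher and 1 lower of 19 (26.3% and 5.26%, against 10.1% and 5.02% of all genes). Cdkn1a, the cell-cycle inhibitor p21, had 7.35, 6.30 and 6.27 FPKM in LPS and 136, 137 and 135 in LPS-MIC-1 (log2 fold change 4.34, standard error 0.0830, adjusted p = 3.38e-09). Musk, the kinase that gathers acetylcholine receptors, rose from 2.91 ± 0.377 to 16.4 ± 0.950, the transcription factor Runx1 from 0.197 ± 0.0351 to 3.21 ± 0.196 and Gadd45a from 34.0 ± 1.64 to 171 ± 7.71. Ampd3, an AMP deaminase, is listed at 0 in the LPS libraries and had 7.12, 6.04 and 4.77 in LPS-MIC-1. Lrp4, the agrin receptor, was lower at 1.60 ± 0.186 and 0.592 ± 0.0677. The median of the list was 0.08 (-0.03 after quantile normalization). Runx1 and Ampd3 passed the FPKM filter only through LPS-MIC-1.

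Myogenic regulators and satellite cell genes had 5 higher and 5 lower of 28, with a median of -0.28. Myod1, the master factor of myogenesis, had 33.9, 34.6 and 33.3 FPKM in LPS and 4.69, 5.27 and 4.21 in LPS-MIC-1 (log2 fold change -2.82, standard error 0.0914, adjusted p = 6.33e-08), with 21.9 ± 1.97 in control. The Notch targets Hey1 and Hes1 were lower by 2.55 and 1.89, and Cd34 and Six4 by 1.52 and 1.27. Mustn1 rose from 59.4 ± 2.71 to 462 ± 24.9, Sdc4, a syndecan of satellite cells, from 10.3 ± 1.34 to 56.1 ± 3.62 and Mef2a from 4.49 ± 3.79 to 11.3 ± 2.39. The change of Mef2a was 1.69 with LPS-MIC-1 replicate 3 and 1.75 without it, where it was not called (adjusted p = 0.0646). Among TGF-beta, activin and BMP genes, 6 of 26 were higher and 4 lower. The activin subunit Inhbb went from 0.138 ± 0.0448 to 2.80 ± 0.371, the receptor Acvr1b from 11.8 ± 0.304 to 51.4 ± 3.13 and Smad5 from 3.40 ± 0.242 to 11.3 ± 1.24. Chrdl2, a BMP antagonist, had 2.68, 1.74 and 2.66 in LPS and is listed at 0 in LPS-MIC-1.

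Extracellular matrix genes had 7 higher and 8 lower of 40, against 10.1% and 5.02% of all genes tested. At any fold size 20 were lower and 11 higher, against 27.6% and 28.9% of all genes tested. The median was -0.51 (-0.64 after quantile normalization, with 12 called lower). The lower genes were chiefly structural. Col6a2 had 16.3, 16.2 and 15.4 FPKM in LPS and 4.38, 3.86 and 4.12 in LPS-MIC-1, Col15a1 had 5.46 ± 0.288 and 1.09 ± 0.0226, Col1a1 12.7 ± 0.392 and 4.44 ± 0.105, Col3a1 16.9 ± 0.913 and 7.23 ± 0.274, and elastin (Eln) 4.86 ± 0.388 and 1.62 ± 0.261. Changes ran from -1.12 for Thbs4 to -2.23 for Col15a1. The higher genes were mostly secreted regulators, such as the protease inhibitor Timp1 (0.801 ± 0.269 to 6.58 ± 0.906), the proteases Mmp3 and Adamts9, and the matricellular proteins Cyr61 (5.93 ± 0.286 to 52.8 ± 1.43) and Ctgf, but they also held the basement membrane chain Col4a1 (19.0 ± 0.0882 to 47.8 ± 1.44). The fibroblast marker list, which shares collagens with this list, went in summed FPKM from between 194 and 218 in LPS to between 248 and 273 in LPS-MIC-1, although 4 of its 11 tested genes were called lower and 1 higher. Without Dcn the sums overlapped, at 120.3 to 143 and 137 to 149. Dcn, which encodes decorin and is its most abundant gene, went from 74.5 ± 0.6 to 119.8 ± 7.91.

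Genes of p53 signalling, cell-cycle arrest and cell death had 14 higher and 1 lower of 35, with a median of 0.86. After Btg2, Cdkn1a and Sesn1, the next by size were Casp4, the caspase that binds cytosolic LPS, at 0.591 ± 0.102 and 4.75 ± 0.667, Plk3 at 0.560 ± 0.485 and 2.97 ± 0.261, and Bcl2l1, which blocks apoptosis, at 1.80 ± 1.27 and 11.1 ± 3.73. Ripk3 and Mlkl, which carry out necroptosis, rose by 1.89 and 1.72. The lower gene was Cdkn2b, at 4.07 ± 0.581 and 0.728 ± 0.134. Of 14 cell-cycle genes tested, 1 was higher (Rrm2, 0.307 ± 0.0782 to 1.96 ± 0.775), a share of 7.14%. Casp4, Plk3 and Rrm2 passed the FPKM filter only through LPS-MIC-1, so the counts and the median are partly set by it.

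In the unfolded protein and integrated stress response, 10 of 35 genes (28.6%) were higher and 0 lower, against 10.1% and 5.02% of all genes tested. Chac1, which degrades glutathione, had 6.60, 8.66 and 8.03 FPKM in LPS and 115, 115 and 103 in LPS-MIC-1, a change of 3.83. It was the LPS libraries that stood apart from control (98.0 ± 4.54) for this gene. Ppp1r15a, which restores translation after stress, rose from 17.3 ± 1.09 to 118 ± 4.95, Trib3 from 0.318 ± 0.0692 to 1.79 ± 0.229 and asparagine synthetase (Asns) from 0.571 ± 0.0451 to 2.62 ± 0.709. Trib3 and Asns passed the FPKM filter only through LPS-MIC-1. Heat-shock proteins and chaperones had 5 higher and 1 lower of 32 (15.6% and 3.12%) but a median of -0.24. At any fold size 15 were lower and 11 higher, against 27.6% and 28.9% of all genes tested. The small heat-shock protein Hspb1 was among the most abundant higher genes, at 437, 433 and 425 in LPS and 2985, 3170.4 and 2765 in LPS-MIC-1 (2.78), followed by Hspb7 (57.5 ± 0.682 to 456 ± 13.1), and the inducible Hspa1a and Hspa1b rose by 1.99 and 2.01. The last 2 are near-identical copies, so their reads cannot be assigned with certainty. Nrf2 targets and antioxidant enzymes, a pathway that isothiocyanates are known to engage, had 4 higher and 1 lower of 45 and a median of 0.07 (-0.01 after quantile normalization). Hmox1, Aldh1a1 (10.2 ± 0.990 to 35.8 ± 1.93), Gclc (3.02 ± 1.28 to 6.94 ± 1.31) and Srxn1 (12.1 ± 0.795 to 24.9 ± 0.779) were the higher genes and Ephx1 (11.5 ± 0.769 to 3.92 ± 0.539) the lower, and the share of 8.89% called higher was close to the 10.1% of all genes.

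Cholesterol synthesis and lipoprotein uptake had 6 higher and 2 lower of 24. Apod, a lipid-binding protein, went from 5.80 ± 0.594 to 38.7 ± 5.67 FPKM, Npc1, which exports cholesterol from lysosomes, from 23.6 ± 0.873 to 85.6 ± 4.34 and the receptor Vldlr from 17.7 ± 0.472 to 47.1 ± 2.34. Apoe and Dhcr7 were lower by 1.22 and 1.03.

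The inflammatory lists were mostly higher in LPS-MIC-1. Only 16 of 30 acute-phase genes and 17 of 34 cytokine genes found passed the filter of a mean FPKM over 1. Members low in LPS, such as Orm3, Hp, Ccl5, Cxcl1 and Csf3, passed it only through LPS-MIC-1. The shares called and the medians of such lists are therefore partly set by the filter. Acute-phase and antimicrobial genes had 13 higher and 0 lower of 16 and a median of 4.31, with Saa3 (serum amyloid A3) at 0.877, 1.33 and 0.871 FPKM in LPS and 547, 489 and 496 in LPS-MIC-1, Orm3 at 0.169 and 20.6 on average, and haptoglobin (Hp) at 0.380 ± 0.329 and 26 ± 1.09. Chemokine and cytokine genes had 11 higher and 1 lower of 17, among them Ccl5 (0.322 ± 0.296 to 20.8 ± 1.87), Cxcl1 (0.128 ± 0.0564 to 12.8 ± 1.18) and Csf3 (0.0423 ± 0.0366 to 8.13 ± 1.09). The lower gene was Cxcl12, a chemokine of resting tissue, at 20.8 ± 0.276 and 5.83 ± 0.798. Interferon-stimulated genes and guanylate-binding proteins had 39 higher and 0 lower of 46 and a median of 1.93, with Ifi47, Gbp4, Zbp1 and Rsad2 highest by change (4.93, 4.11, 4.11 and 3.98). MHC class I presentation had 10 higher and 0 lower of 22 (Tap1, 1.79 ± 0.346 to 12.6 ± 0.838), NF-kB and LPS sensing 10 and 1 of 25 (Nfkbia, 23.3 ± 0.369 to 112 ± 4.61), complement and coagulation 6 and 1 of 17, and leukocyte adhesion 3 and 0 of 8 (Icam1, 0.749 ± 0.162 to 6.82 ± 0.780).

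Inhibitors of cytokine signalling did not follow a single order. In the list of receptors, STAT factors and SOCS inhibitors, 8 of 30 genes were higher and 3 lower. Socs3 rose from 0.697 ± 0.395 FPKM in the LPS libraries to 5.84 ± 0.821, near the 5.50 ± 0.771 of control, and Socs1 from 0.866 ± 0.478 to 4.11 ± 0.586, far under the 48.8 ± 1.08 of control. Cish, another STAT-induced inhibitor, fell from 4.42 ± 0.540 in LPS to 1.39 ± 0.0967 in LPS-MIC-1, with 47.1 ± 0.283 in control. Il6ra, the IL-6 receptor, rose from 0.0540 ± 0.0131 to 2.82 ± 0.881. The cytokines Tnf, Il1b and Il6 did not reach a mean FPKM of 1 and were not tested, with means of 0.0503, 0.0640 and 0.0260 in LPS and 0.967, 0.302 and 0.453 in LPS-MIC-1. Among 12 Ifna genes the highest value in the 9 muscle libraries was 0.192.

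**Figure D5:**
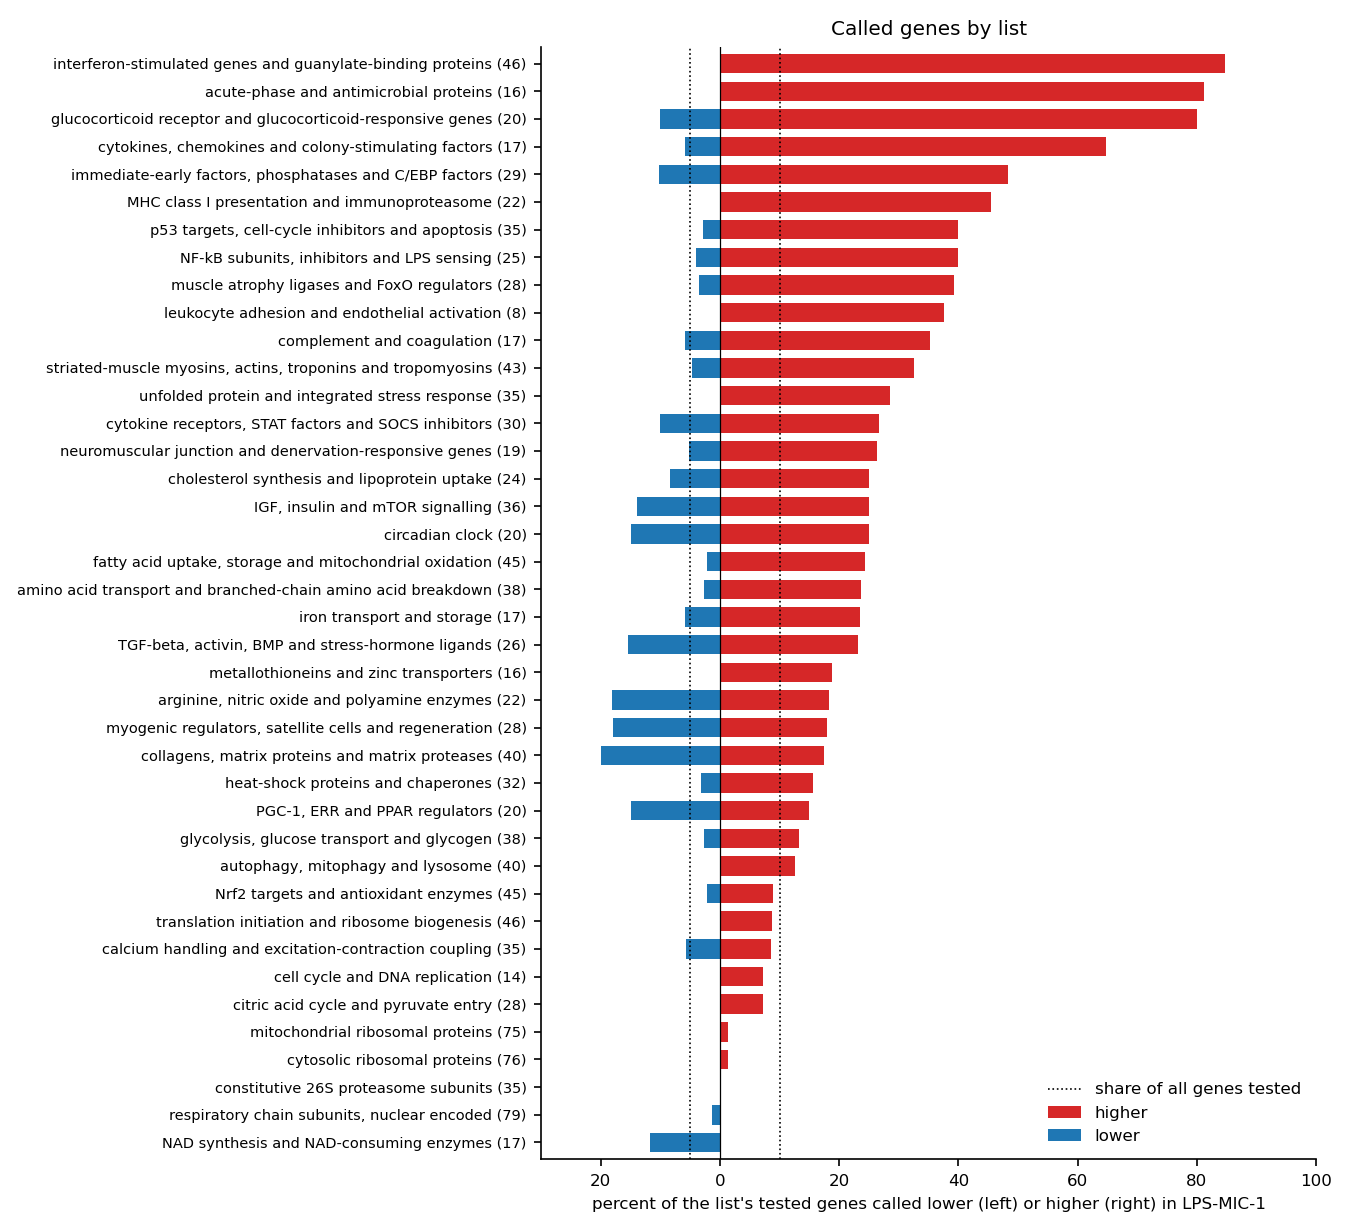
Percent of the tested genes of each list that were called higher (to the right) or lower (to the left) in LPS-MIC-1, with the number tested in brackets and dotted lines at the share over all genes, 10.1% and 5.02%. Interferon, acute-phase and glucocorticoid lists reach 80% or more higher, and proteasome, ribosome and respiratory chain lists stay below both lines. Only genes that passed the FPKM filter are counted, and some passed it through LPS-MIC-1 alone.

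Beyond the lists, some genes with large falls have no shared role. Pdzd7, a scaffold protein known from hair cells, had 16.5, 18.6 and 17.1 FPKM in LPS and 1.14, 1.10 and 0.831 in LPS-MIC-1 (log2 fold change -3.97), and Sec14l5, a lipid-transfer protein relative, had 12.3, 10.9 and 11.7 and then 0.874, 0.519 and 0.615 (-3.96). Sdpr, also called cavin-2, a coat protein of caveolae, fell from 12.4 ± 0.0964 to 1.57 ± 0.207. The other large falls were in 4930544D05Rik (-3.70), 6430571L13Rik (-3.08) and Mir1943 (-3.73), the last at 7.75, 7.73 and 15.2 in LPS and without a call when LPS replicate 3 was left out (adjusted p = 0.0535). In LPS-MIC-1 replicate 3 Mir1943 is listed at 0, and without that library its change was -2.28. Abundant lower genes included the antiproliferative gene Tob1 (184 ± 3.19 to 55.7 ± 2.51), Dysfip1 (223 ± 18.5 to 51.1 ± 2.89), Ptpla, of long-chain fatty acid elongation (172 ± 4.93 to 67.7 ± 2.33), and Aimp2, a scaffold of tRNA synthetases (374 ± 3.99 to 174 ± 11.7). Among the largest rises outside the lists were 8430408G22Rik (1.95 ± 0.548 to 609.6 ± 31.2), AA467197 (0.332 ± 0.288 to 41.9 ± 2.78) and the growth factor Pgf, which is listed at 0 in LPS and had 16.4, 16.4 and 13.7 in LPS-MIC-1.

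Markers of other cell types were summed per library to show what else the tissue held. The macrophage list (23 of 24 genes found) came to between 60.9 and 63.9 FPKM in LPS, to 72.6 and 74.0 in LPS-MIC-1 replicates 1 and 2, and to 299 in replicate 3. Lyz2, its most abundant gene in LPS-MIC-1, had 5.27, 3.93 and 78.3 in LPS-MIC-1 and 8.31, 9.65 and 8.93 in LPS, so that its log2 fold change went from 0.40 with replicate 3 to -0.96 without it. Replicate 3 was the highest of the 6 libraries in 16 of these genes, and 211 genes stood over 1 FPKM and more than 3 times above the other replicates in it, against 49 to 83 in each of the other 8 muscle libraries. Lgals3, Spp1 and Cd14, of macrophages and damaged tissue, were among them, and Spp1 lost its call without replicate 3 (adjusted p = 0.0613) while Lgals3 and Cd14 kept theirs.

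Neutrophil markers went from between 1.89 and 2.24 FPKM in LPS to between 15.2 and 20.5 in LPS-MIC-1, endothelial markers from 86.1 to 89.5 up to 118 to 136, and nerve and Schwann cell markers from 7.28 to 8.68 up to 24.4 to 26.6. Control was at 131 to 135 for the endothelial list and 10.2 to 13.1 for the nerve list. S100a8 of neutrophils had 0.739, 0 and 0.733 in LPS and 7.25, 7.47 and 7.41 in LPS-MIC-1, and the myelin gene Mbp went from 2.37 ± 0.445 to 10.4 ± 0.996. The neutrophil gene S100a9 changed by 3.34 but was not called (adjusted p = 0.0996). Many of these genes were near the floor. Under 1 FPKM in all 6 libraries were 9 of 14 neutrophil genes found, 6 of 10 nerve genes and 6 of 10 liver genes. The skeletal muscle fibre list, led by Acta1, went the other way, from 279943 to 285856 in LPS down to 219220 to 234783 in LPS-MIC-1, while 0 of its 16 genes was called. Sums for liver (3.28 to 3.88 and 5.39 to 9.51) were higher in LPS-MIC-1, those for red cells (607 to 651 and 542 to 605) were lower, and those for lymphocytes overlapped (1.56 to 1.86 and 1.52 to 1.66). Of the 2 liver genes tested, 1 was called higher and 1 lower. The direction of 3 other sums was set by a single gene. Smooth muscle went from 1683 to 1698 up to 1789 to 1921, but without Des, which fibres also express, from 96.1 to 100.6 down to 75.0 to 83.7. Adipocyte markers went from 3662 to 3697 down to 3206 to 3473, but without Car3, also abundant in muscle, from 228 to 251 up to 332 to 360. Intestine markers went from 6.32 to 6.62 up to 17.9 to 19.8, but without Lgals4 from 1.82 to 2.29 down to 0.775 to 0.893, and 9 of the 10 genes were under 1 FPKM in all 6 libraries. Alb, the defining liver gene, reached at most 2.88 FPKM. In 12 of the 13 marker lists the 2 groups did not overlap, each with an exact 2-sided permutation p of 0.1, the smallest that 3 libraries against 3 allow (0.108 after adjustment over the lists). In whole tissue more cells of a type and more RNA per cell cannot be told apart, and the part of these markers in the gene groups above was not tested.

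Leaving out LPS-MIC-1 replicate 3 left most calls in place. Without it, 877 of the 958 higher genes and 440 of the 475 lower genes were still called, and 41 and 63 others were gained. Trim63, Fbxo32, Pdk4, Mt2, Ddit4, Myl2, Itgb1bp3 and Myod1 kept their calls, with log2 fold changes of 4.86, 3.38, 5.38, 7.54, 6.54, 6.79, -4.77 and -2.75. List counts without replicate 3 stood at 15 higher of 16 for acute-phase genes, 10 of 17 for chemokines, 39 of 46 for interferon-stimulated genes, 15 of 20 for glucocorticoid-responsive genes, 11 of 28 for the atrophy list, 14 of 43 for contractile genes, and 7 higher and 8 lower of 40 for the matrix. The 81 higher and 35 lower genes that lost their call included Capg and Cyba, of leukocytes (1.38 and 1.16 with the library, 0.87 and 0.98 without). Others were Hnrnpf (1.03 and 0.998), Myl9 (-1.03 and -0.889) and Snord104 (1.02 and 1.01, adjusted p = 0.0574 without the library). Cyba, Hnrnpf and Myl9 missed only the fold threshold (adjusted p = 0.00215, 1.10e-05 and 7.30e-05).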

How the data were processed

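Total RNA from gastrocnemius was sequenced in 3 libraries per group. As deposited, the muscle table holds 1 FPKM value per gene symbol and library, made by the authors from reads quantified with kallisto. The submitters' notes name the mouse build mm9. Strand and the handling of multi-mapping reads are not given in the sources used here, so overlapping, antisense and near-identical genes are uncertain. Deposited tables of the authors' own comparisons (fold changes and p-values) were not used, nor were 9 unnamed columns of per-sample values in the muscle table. Spreadsheet conversion had turned 26 symbols into dates or numbers. Depth is known only relatively, so no counting intervals are given.

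FPKM values plus a pseudocount of 0.1 were taken to log2, which understates changes of low genes. Group means were fitted to all 9 muscle libraries with limma 3.58.1 in R 4.3.3 (empirical Bayes with a mean trend), on the 9467 genes with a mean FPKM over 1 in the 6 libraries compared, with Benjamini-Hochberg adjustment. A gene near 0 in a single group can pass this filter through the other group, so shares called and medians of lists rich in such genes are partly set by it. A gene is called where its adjusted p is below 0.05 and its change exceeds 1 on the log2 scale. The fit was first tested on simulated data. Groups follow the labels. Replicates carry only numbers in the labels, so p-values measure the spread between these samples, which may be technical. Tables and plots were made with Python 3.11.15 and matplotlib 3.10.9.

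The comparison and the 41 pathway and 13 marker lists (1659 of 1693 entries found) were chosen with earlier results of these data known. The list of 13 mitochondrially encoded transcripts had 0 genes in the table, and Y-linked markers were present in each library. Genes were named by a rule: the 10 largest rises and falls among called genes without overlap and with a mean FPKM over 10 in the higher group, the 10 most abundant called in each direction, the 4 largest called changes in each list, the study's cytokines, and the 3 most abundant markers of each cell type. Slow-fibre genes, gene families and other genes outside this rule were chosen after their values were seen. RefSeq symbols of assembly GRCm38.p6 were used for names alone. Alternatives were other pseudocounts, filters, scalings, fits and leaving out each library. Some genes of these lists are counted but not reported here by name.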

Additional observations from a re-analysis of the deposited data

How the results depend on the processing

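Leaving out each of the 9 muscle libraries in turn gave 916 to 966 higher and 460 to 503 lower genes, against 958 and 475. Genes with a mean FPKM over 5 gave 504 higher and 177 lower, and no filter gave 1365 and 806. A pseudocount of 1 gave 759 and 274, and any fold size gave 2740 and 2614. Median-ratio scaling, no trend and a fit on 6 libraries kept both counts within 1.5 times, and quantile normalization gave 811 and 685. Deviations of LPS and LPS-MIC-1 libraries with the same replicate number were at most weakly correlated (0.066, 0.073 and -0.011), against -0.076 to 0.009 for different numbers. With 3 libraries per group these values cannot tell whether a number marks a shared batch. A fit with a replicate block gave 957 and 474. Of 162 named genes called, 147 were called under each alternative that tested them. Signs turned for Psmb7 (0.011), Lyz2 (-0.96) and Lyz1 (-0.28) without LPS-MIC-1 replicate 3, where leaving out 1 library gave a log2 fold change of Psmb7 as low as -0.073 and values of Lyz2 and Lyz1 up to 1.18 and 2.26, and for Lipe under quantile normalization (-0.036). The cause was not tested. Of 1440 list counts, 79 moved by over 1.5 times. FPKM without counts limits what can be said of genes near 1 FPKM.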

Other observations

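Gene families outside the lists, chosen after their values were seen, also differed between the libraries. Of 69 small nucleolar RNA genes, which guide modification of ribosomal RNA, 17 (24.6%) were higher and 0 lower, with a median log2 fold change of 1.74. Without LPS-MIC-1 replicate 3, 15 were higher and 1 lower. The family was noisy, with a median SD in LPS-MIC-1 of 43.7% of the mean, against 10.3% for other solute carriers. Snora15 and Snora69 were called although LPS-MIC-1 replicate 2 is listed at 0. Members listed at 0 in LPS, such as Scarna3a, passed the FPKM filter only through LPS-MIC-1, which raises the median. Of their host genes Snhg and Gas5, 2 of 6 were higher, namely Snhg1 with a change of 2.62 and Snhg12 with 3.13. Kruppel-like factors had 5 higher of 12 (Klf15, Klf6, Klf9, Klf11 and Klf5) and 1 lower (Klf4), and alpha-arrestins 3 of 5, with Arrdc3 at 3.92, Arrdc2 at 2.89 and Txnip at 1.24 on the log2 scale. Of 19 Hox genes 0 were higher and 3 lower (Hoxc6, Hoxc5 and Hoxb6, from -1.04 to -1.40). Mitochondrial carriers of the Slc25 family had 5 higher and 2 lower of 32, other solute carriers 21 and 10 of 113, and microRNA genes 4 and 3 of 43. Over all genes tested, 10.1% were higher and 5.02% lower.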
